A study of Mus musculus with 6 samples.

Results

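The box C/D small nucleolar RNAs (snoRNAs) Snord32a, Snord33, Snord34 and Snord35a, all encoded in introns of the ribosomal protein gene Rpl13a, were examined in small RNA libraries of thymic regulatory T (Treg) cells. They were found by Ensembl identifier among the 54547 genes of the count tables, and they are 4 of the 99 genes named Snord and lie among the 1507 genes of the snoRNA biotype. The study concerned Treg-cell development and CTLA-4 without miR-181a/b-1, and small RNA was sequenced to ask whether other miRNAs were lost as well. There were 3 libraries of wild-type (WT) mice and 3 of miR-181a/b-1-/- mice. All mice were 7 weeks old, and the labels spell their strain background C5BL6/N. Each library was made with the SMARTer small RNA kit from Treg cells sorted by flow cytometry. Per the study's methods, each sample pooled 3 thymi. The paper's results text calls the sequenced cells peripheral, whereas its methods and a figure legend name thymi and thymic Treg cells. They are called thymic here after the methods. The deletion is not restricted to Treg cells, and mouse-to-mouse spread within a pool cannot be seen.

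Box C/D snoRNAs are short nucleolar RNAs that are released from spliced introns. They carry a box C near the 5′ end and a box D near the 3′ end, bind the proteins fibrillarin, Nop56, Nop58 and Snu13, and pair with ribosomal RNA to place ribose methyl groups. Snord32a pairs with RNA of both ribosomal subunits, Snord33 with RNA of the small subunit, and Snord34 and Snord35a with RNA of the large subunit. The snoRNAs of Rpl13a are also known from work on lipotoxic and oxidative stress, where they were found to act outside the nucleolus.

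The sequences of the 4 snoRNAs are shown because the boxes define the class and because the letters they share with other genes bear on how reads were assigned. They were taken from the GENCODE vM21 transcripts (GRCm38) and are written as DNA, 5′ to 3′, with capitals marking TGATG, a core of box C, and CTGA, box D.
Snord32a: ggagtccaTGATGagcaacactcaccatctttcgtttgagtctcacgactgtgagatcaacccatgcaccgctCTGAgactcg
Snord33: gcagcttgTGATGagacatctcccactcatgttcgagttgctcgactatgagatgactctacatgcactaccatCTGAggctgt
Snord34: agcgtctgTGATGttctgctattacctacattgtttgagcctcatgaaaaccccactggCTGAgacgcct
Snord35a: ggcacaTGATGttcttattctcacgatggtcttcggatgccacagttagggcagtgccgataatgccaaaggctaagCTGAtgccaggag

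All 4 sequences held both motifs. The search was made on the strand of the snoRNA, with TGATG in the first 20 bases and CTGA starting in the last 20 bases. In Snord35a the CTGA also runs into a further TGATG. Of 98 named Snord sequences, 86.7% held both motifs, so the match marks the class rather than the 4 genes. The stretch between the boxes was 60 bases in Snord32a, 61 in Snord33, 46 in Snord34 and 66 in Snord35a. Complementary ends that could form the short terminal stem were 5 bases long in Snord32a (gagtc with gactc), 4 in Snord33, 6 in Snord34 (gcgtct with agacgc) and 4 in Snord35a. Snord32a and Snord33 were the most alike pair, with 65.9% identity, and the other pairs ranged from 53.3% to 59.5%. A stretch of 18 bases or more was shared with another annotated transcript only by Snord33, which shared it with Mir5121 and with transcripts of Rpl13a itself.

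Rpl13a lies on the minus strand of chromosome 7, and its coding transcript Rpl13a-201 has 8 exons and 7 introns. Snord32a (ENSMUSG00000065219.1, chr7:45127382-45127464, 83 bases) is in intron 2. Snord33 (ENSMUSG00000065628.1, chr7:45126864-45126947, 84 bases) is in intron 4, Snord34 (ENSMUSG00000065878.1, chr7:45126601-45126670, 70 bases) in intron 5 and Snord35a (ENSMUSG00000065818.1, chr7:45126346-45126435, 90 bases) in intron 6. Each gene sat nearer to the 5′ splice site than to the 3′ splice site of its intron, with 31 against 107 bases for Snord32a, 43 against 69 for Snord33, 38 against 63 for Snord34 and 42 against 108 for Snord35a. Relative to Rpl13a-201 the 4 genes are wholly intronic. Exons of other Rpl13a transcripts, annotated as retained-intron and holding all or part of intron 4, lie over Snord33. Rpl13a-211 and Rpl13a-218 each cover all 84 of its bases, Rpl13a-209 covers 48 and Rpl13a-213 covers 16, and Mir5121 covers 30. No exon of another gene overlaps Snord32a, Snord34 or Snord35a.

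**Figure D1:**
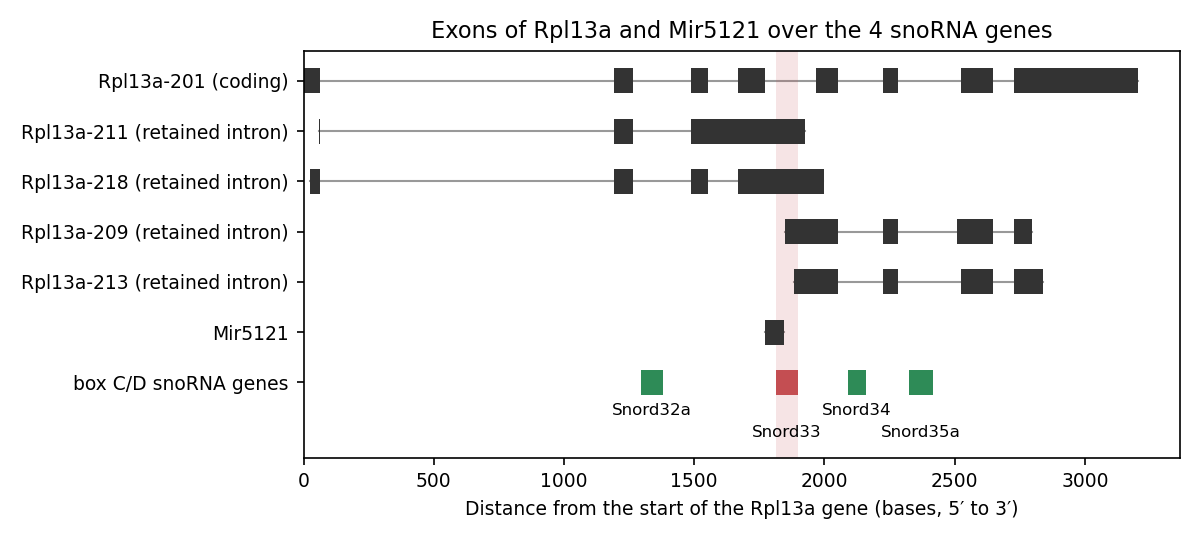
Exons of Rpl13a-201, of the 4 retained-intron transcripts of Rpl13a that overlap Snord33 and of Mir5121 (dark boxes) above the 4 snoRNA genes (coloured boxes), against distance in bases from the start of Rpl13a. The shaded band marks Snord33, which is the only snoRNA of the 4 that lies under exons of other genes.

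The libraries held 168293 to 307840 counts on genes, and 41.9% to 45.8% of these fell on genes of the snoRNA biotype. The largest was miR-181a/b-1-/- replicate 3, which had the lowest normalization factor (0.876), and the smallest was replicate 1 of that genotype, which had the highest (1.12). Of 8 Treg markers, 7 passed the count filter, Foxp3 and Il2ra among them, and Ctla4 had 1 count in 1 WT library. The summed level of the 8 was 1.18 to 1.23 per 1000 gene counts in WT and 1.08 to 1.38 in miR-181a/b-1-/- libraries. Of the markers of other cells, none of 5 erythroid and none of 4 myeloid genes had a count, 1 of 4 B cell genes had 2 counts or fewer in a library, and 4 of 6 genes of double-positive thymocytes summed to 1 to 4 counts in WT and 4 to 5 in miR-181a/b-1-/- libraries, with Rag2 and Ptcra at 0. The deleted miRNA genes could not check the labels, since Mir181b-1 was at 0 in all 6 libraries and Mir181a-1 had 1 count in 1 WT library.

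Among the 4 snoRNAs, Snord32a and Snord34 were among the most abundant RNAs counted, Snord35a was lower, and Snord33 was at 0. Snord32a ranked 6th of all genes by counts in each of the 6 libraries, Snord34 4th to 8th and Snord35a 15th or 16th. Over the 6 libraries the counts summed to 47812 for Snord32a, 41530 for Snord34 and 19064 for Snord35a. As a share of gene counts, the 4 together made up 8.48%, 8.05% and 8.14% of WT libraries, and 7.65%, 7.48% and 7.88% of libraries from miR-181a/b-1-/- mice. Every WT share was above every miR-181a/b-1-/- share, with means of 8.22% ± 0.227 and 7.67% ± 0.202 (SD, n = 3 each). On this scale all miR-181a/b-1-/- libraries were below all WT libraries for 4.67% of the 1391 single genes tested and above them for 2.66%, and none of the 3 snoRNAs with counts separated the genotypes by itself. Reads that fell on no annotated gene separated the libraries too, at 9.01%, 10.2% and 9.94% of records in WT and 10.7%, 13.1% and 13.1% in miR-181a/b-1-/- mice, and their part in the difference was not tested. The separation of the summed share depended on the scale. Scaled by TMM, the trimmed mean of M values, the summed level was 93.7, 91.8 and 89.3 normalized counts per 1000 counts on tested genes in WT and 77.6, 82.2 and 99.5 in miR-181a/b-1-/- libraries. On that scale the groups overlapped (91.6 ± 2.20 and 86.4 ± 11.5), and the log2 difference of -0.08 was -0.0121 without miR-181a/b-1-/- replicate 1, -0.0492 without replicate 2 and -0.20 without replicate 3. As a share of snoRNA counts alone, the values were 19.0%, 18.1% and 19.0% in WT and 18.3%, 17.7% and 17.2% in miR-181a/b-1-/- libraries, and again they overlapped.

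Snord32a did not differ detectably between the genotypes. Its level, in normalized counts per 1000, was 38.3, 38.8 and 40.0 in WT and 32.9, 38.5 and 46.5 in miR-181a/b-1-/- libraries. The miR-181a/b-1-/- values spanned those of WT on both sides, with replicate 1 lowest and replicate 3 highest. The means were 39.0 ± 0.902 and 39.3 ± 6.81 (SD, n = 3 each). The fold of miR-181a/b-1-/- over WT was 1.01, with a 95% interval of 0.765 to 1.32 (log2 fold change 0.01, SE 0.192, edgeR quasi-likelihood test, adjusted p = 0.998). The exact two-sided permutation test of the level gave p = 0.9, where 3 libraries against 3 allow no p below 0.1.

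Snord34, the shortest of the 4, was the member with the largest difference, and it was not past the threshold. Its level was 40.8, 37.7 and 33.1 normalized counts per 1000 in WT and 31.6, 28.9 and 33.6 in miR-181a/b-1-/- libraries. The lowest WT library (replicate 3) and the highest miR-181a/b-1-/- library (replicate 3) overlapped by a small margin, and the other 2 miR-181a/b-1-/- values were below all WT values. The means were 37.2 ± 3.85 and 31.4 ± 2.40 (SD, n = 3 each), and the fold was 0.843 with a 95% interval of 0.643 to 1.11 (log2 fold change -0.25, SE 0.190, edgeR quasi-likelihood test, adjusted p = 0.980). The unadjusted p of the edgeR test was 0.207, and the exact two-sided permutation test of the level gave p = 0.2.

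Snord35a, the longest of the 4, gave 14.6, 15.3 and 16.2 normalized counts per 1000 in WT and 13.1, 14.9 and 19.4 in miR-181a/b-1-/- libraries. As with Snord32a, miR-181a/b-1-/- replicate 1 was lowest and replicate 3 highest, and the groups overlapped. The means were 15.4 ± 0.774 and 15.8 ± 3.24 (SD, n = 3 each). The fold was 1.03 with a 95% interval of 0.760 to 1.39 (log2 fold change 0.04, SE 0.211, edgeR quasi-likelihood test, adjusted p = 0.990; exact two-sided permutation test of the level, p = 0.9).

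**Figure D2:**
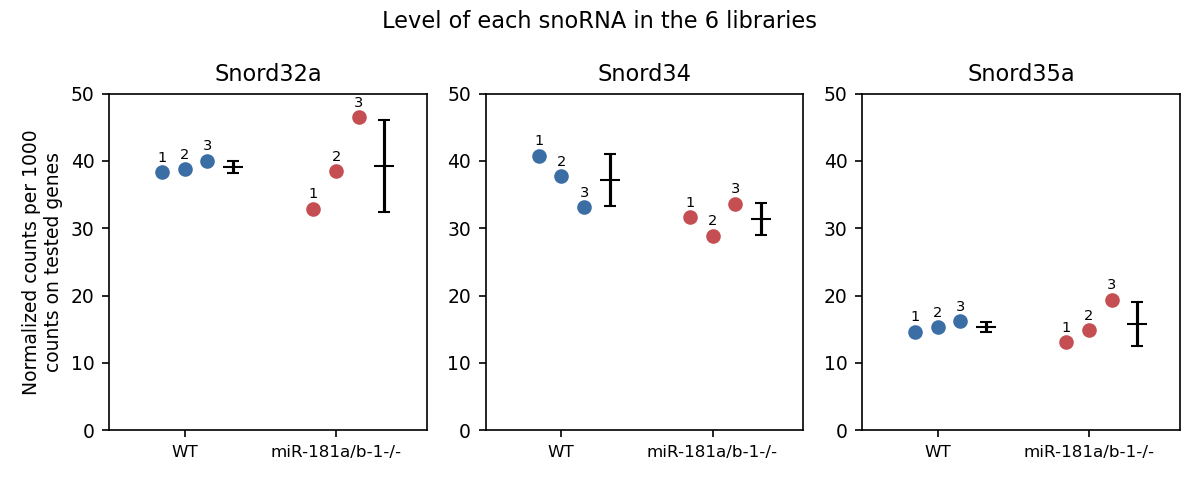
Level of each snoRNA in normalized counts per 1000 counts on tested genes, by library, with the replicate number above each point and the mean and SD of 3 libraries as bars. The miR-181a/b-1-/- points of Snord32a and Snord35a spread from below to above the WT points, and those of Snord34 sit between 28.9 and 33.6 against 33.1 to 40.8 in WT.

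None of the 3 snoRNAs tested had an adjusted p below 0.05, against 0% (0) of the 1391 genes tested. At an unadjusted p below 0.05 none of the 3 was called, against 5.18% of all genes tested with edgeR (2.66% lower and 2.52% higher) and 1.73% with DESeq2, and DESeq2 also made 0 calls after adjustment. None of the 3 had all miR-181a/b-1-/- libraries below all WT libraries, against 4.82% of genes, or all above, against 3.24%. Folds as low as 0.643 for Snord34 and as high as 1.39 for Snord35a lay within the intervals, so equal levels were not shown either. The spread between libraries was above counting error for all 3. For the normalized level of Snord32a the coefficient of variation was 2.31% in WT and 17.35% in miR-181a/b-1-/- libraries, where counting alone would give 0.940% to 1.35%. For Snord34 it was 10.35% and 7.635%, with 1.104% to 1.398% from counting alone. For Snord35a it was 5.04% and 20.52%, with 1.455% to 2.146% from counting alone. The wide spread of Snord32a and Snord35a in miR-181a/b-1-/- libraries depended on the scaling. As shares of gene counts, a scale added after the levels had been seen, the coefficient of variation was 3.66% in WT and 6.32% in miR-181a/b-1-/- libraries for Snord32a, 5.97% and 9.11% for Snord35a, and 10.1% and 9.73% for Snord34.

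**Figure D3:**
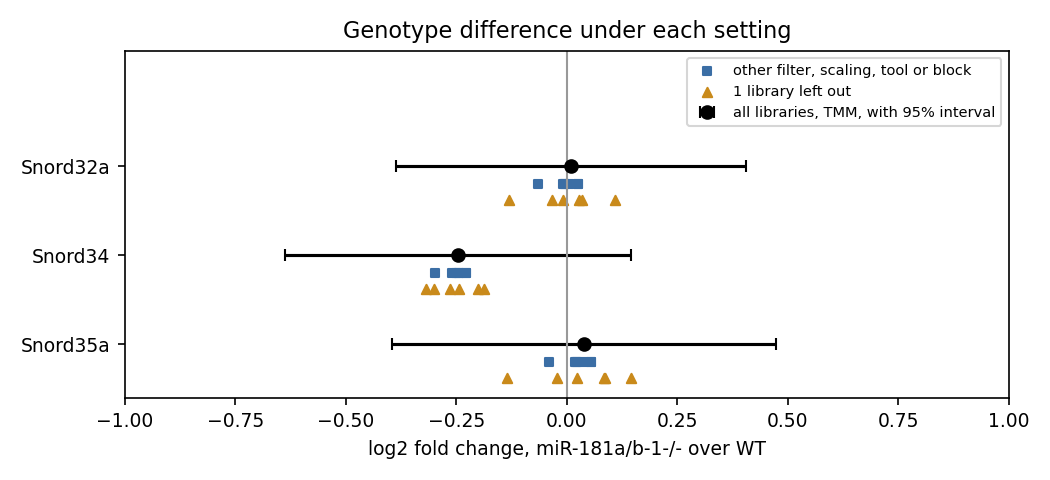
Log2 fold change of miR-181a/b-1-/- over WT (edgeR, points) with 95% intervals (bars) for the 3 snoRNAs that passed the count filter, with the estimates under other filters, scalings, tools or the replicate block (squares) and with each library left out (triangles). All 3 intervals cross 0, and only the estimates of Snord34 all lie below 0, from -0.32 to -0.19.

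Per length, Snord34 and Snord32a were close and Snord35a was lower. Snord34 gave 58.3, 53.9 and 47.3 normalized counts per 1000 per 100 bases in WT and 45.2, 41.2 and 48.0 in miR-181a/b-1-/- libraries. Snord32a gave 46.1, 46.7 and 48.2 in WT and 39.6, 46.3 and 56.0 in miR-181a/b-1-/- libraries, and Snord35a gave 16.3, 17.0 and 17.97, then 14.5, 16.5 and 21.5. Snord34 was first in 3 of 6 libraries, namely WT replicates 1 and 2 and miR-181a/b-1-/- replicate 1, and Snord32a in the other 3, so these neighbours in the order did not differ beyond their spread. Snord35a was the lowest of the 3 in 6 of 6. Without division by length Snord34 was first in 1 library only. Among the 39 Snord genes tested, Snord34 was 2nd and Snord32a 3rd by mean level per length, behind Snord82, and Snord35a was 10th.

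Because the 4 snoRNAs come from a single host transcript, their ratios within a library were also computed, a choice made after the levels had been seen. These ratios do not depend on the normalization. Counts of Snord35a over those of Snord32a were 0.382, 0.394 and 0.404 in WT and 0.398, 0.387 and 0.417 in miR-181a/b-1-/- libraries. The highest of these was 1.09 times the lowest, and the coefficient of variation over the 6 libraries was 3.16%. Counts of Snord34 over those of Snord32a varied more, at 1.07, 0.973 and 0.828 in WT and 0.961, 0.751 and 0.724 in miR-181a/b-1-/- libraries, with a coefficient of variation of 15.5%. Their means were 0.955 ± 0.120 and 0.812 ± 0.130 (SD, n = 3 each), the groups overlapped, and the exact two-sided permutation test gave p = 0.2 (0.3 adjusted over 3 pairs). Counts of Snord34 over those of Snord35a ran from 1.74 to 2.79, with means of 2.44 ± 0.371 for WT and 2.03 ± 0.348 for miR-181a/b-1-/- (exact permutation test, p = 0.2, adjusted 0.3). For Snord35a over Snord32a the means were 0.393 ± 0.0109 and 0.401 ± 0.0153 (exact permutation test, p = 0.6, adjusted 0.6).

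**Figure D4:**
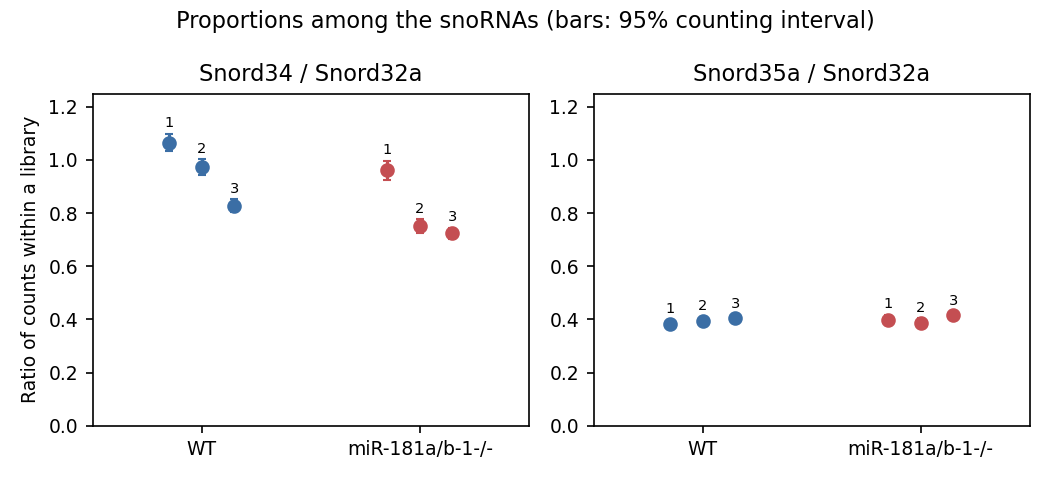
Counts of Snord34 (left) and Snord35a (right) over those of Snord32a within each library, by genotype, with the replicate number above each point and 95% counting intervals as bars. Snord35a over Snord32a stays between 0.382 and 0.417, while Snord34 over Snord32a ranges from 0.724 to 1.07 and the genotypes overlap.

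Over the 6 libraries the log2 levels of Snord32a and Snord35a had a Pearson correlation of 0.980, whereas Snord34 gave 0.120 with Snord32a and 0.044 with Snord35a. These are descriptions over 6 points that share library depth and normalization. The 5 genes whose log2 level was most like the mean of the 3 snoRNAs were Snord13 (0.967), Gm23969 (0.967), Gm24837 (0.954), Snord89 (0.952) and Hspe1 (0.946).

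No library held a read assigned to Snord33. At these depths 0 reads allow up to 0.00135%, 0.00134% and 0.00123% of gene counts in WT and 0.00178%, 0.00154% and 0.000975% in miR-181a/b-1-/- libraries, for counting error only and taking 3 counts as the limit. These limits hold for reads that were assigned to a gene. Counting with HTSeq in its default mode gives a read that lies on exons of more than 1 gene to neither, and reads on more than 1 gene made up 20.4% to 24.0% of all records. All 84 bases of Snord33 lie under exons of Rpl13a. Whether reads of Snord33 were set aside in this way was not tested, and its 0 is not read here as absence. No fold change was computed. Mir5121, which overlaps it, was also at 0 in all 6 libraries.

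The other Snord genes were laid against the same annotation. Apart from the 4 snoRNAs of Rpl13a, 36 Snord genes were wholly covered by exons of another gene on the same strand, and all 36 had 0 counts. Of the 55 with no such overlap, 19 had 0 counts, most of them neighbouring Snord116l genes on chromosome 7. The 2 genes covered in part, by 50% or more, also had 0 counts, and the 2 covered by less had counts. Snord42a and Snord4a, which are wholly covered only on the opposite strand, had 2077 and 2266 counts. Snord33 thus shared its 0 with every wholly covered Snord gene, and Snord32a, Snord34 and Snord35a were among the 39 of 58 uncovered genes that had counts. The median over the 58 was 1633 counts. Whether the annotation used for counting held the same transcripts was not tested, since its release is not given in the sources used here.

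**Figure D5:**
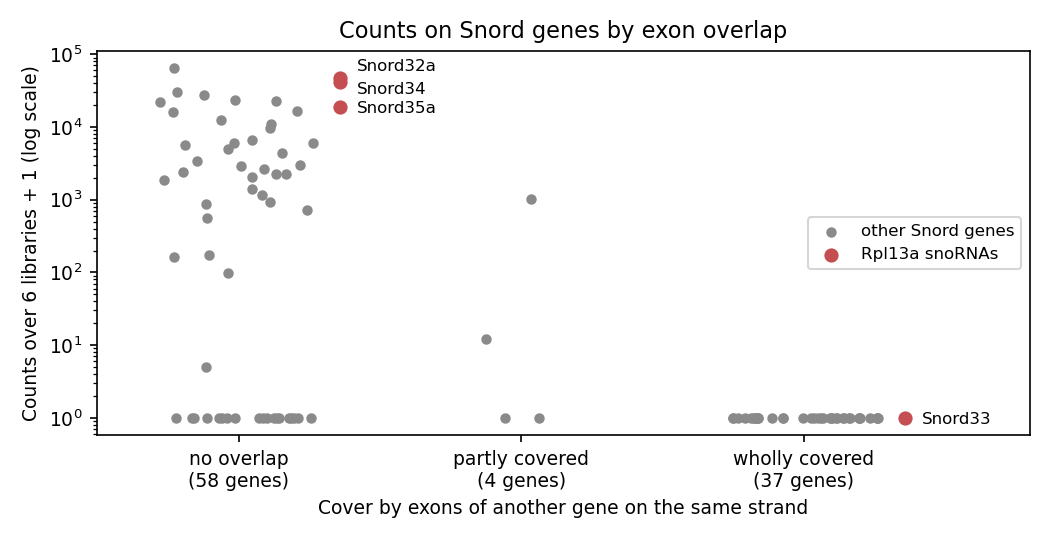
Counts summed over 6 libraries, plus 1, on a log axis for 99 Snord genes, by whether exons of another gene on the same strand cover them. All 37 wholly covered genes, Snord33 among them, are at 0, while Snord32a, Snord34 and Snord35a are near the top of the genes with no overlap.

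Among Snord genes in other ribosomal protein genes, those that passed the count filter gave lower mean levels than Snord32a and Snord34. The highest of them was close to Snord35a. There were 17 such genes, and 8 passed the count filter. Their mean level ranged from 0.919 to 19.5 normalized counts per 1000 per 100 bases, with a median of 2.63. The most abundant was Snord83b of Rpl3, with a log2 fold change of -0.08, and Snord58b of Rpl17 gave -0.43. The log2 fold change was below 0 for 6 of the 8 and above 0 for 2, and its median was -0.11, beside 50.7% negative and a median of -0.004 over all genes tested. None had an adjusted p below 0.05. Snord73a, named because it alone had an unadjusted p below 0.05, had a log2 fold change of -0.76 (edgeR, adjusted p = 0.896).

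Of the 95 Snord genes other than those of Rpl13a, 36 passed the filter, of which 17 were below and 19 above a log2 fold change of 0 (median 0.02) and 0 had an adjusted p below 0.05. The core proteins of the box C/D particle could hardly be followed in these libraries, which hold only fragments of mRNA. Over the 6 libraries Fbl, which encodes the methyltransferase fibrillarin, had 10 counts, Nop56 19, Nop58 81 and Snu13 7. Nop58 alone passed the filter, with a log2 fold change of -0.01 (edgeR, adjusted p = 0.998). Of 8 assembly factors, 7 had counts and 0 passed the filter.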

How the data were processed

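Small RNA was counted in thymic Treg cells of 3 WT samples and 3 from miR-181a/b-1-/- mice. Per the study's methods and the submitters' processing notes, reads were trimmed, ribosomal RNA reads were removed with Bowtie2, and the rest were aligned with STAR (GRCm38.p6) and counted with HTSeq. The authors deposited counts per gene, without normalization. The mode, strand setting and annotation release are not given in the sources used here. Their miRNA table, with fold changes and p-values, was not used.

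Of the 54547 identifiers, 51550 matched GENCODE vM21 with their version and 53706 without. Records given to no gene were left out throughout (75.7% to 80.3% of each library). HTSeq skips reads that align to several places (41.7% to 46.2% of records), which can lower counts of snoRNAs with close copies.

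Genes with at least 10 counts in at least 3 libraries (1391) were tested in edgeR 4.0.16 (R 4.3.3) with TMM normalization, a quasi-likelihood test and Benjamini-Hochberg adjustment over all of them, at a threshold of 0.05. The steps were tested on simulated data. Alternatives were DESeq2 1.42.0, other filters and scalings, a replicate block and leaving out each library. Permutation tests used SciPy 1.17.1. The snoRNAs and lists were chosen with earlier results of these data known. By rule, the genes named outside the 4 were the 3 most abundant Snord genes of other ribosomal protein genes and a relative of Snord35a (of these, 2 are not reported here), the 5 genes most like the mean of the members, the 4 core box C/D proteins and lists of cell markers. Snord82, Snord73a, Snord42a, Snord4a, the Snord116l genes, Mir5121 and the genes likened to single snoRNAs (Mir342, Mir15b, Calr, Snord87) were named after their values were seen. Nothing says whether samples of a genotype came from separate experiments, so p-values measure the spread between these libraries.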

Additional observations from a re-analysis of the deposited data

How the results depend on the processing

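Snord34 had a negative log2 fold change under all 13 refits (7 on all libraries and 6 with a library left out), from -0.32 to -0.19, which is also the range when each library was left out. Its ratios to Snord32a (log2 difference -0.24) and Snord35a (-0.27), chosen after the levels were seen, were also negative. Snord32a and Snord35a had log2 fold changes near 0 (0.01 and 0.04), so these ratios restate the difference of Snord34 and add no separate support. The lowest unadjusted p was 0.047 (edgeR, adjusted p = 0.996), with TMM over snoRNA genes only, a scaling that moved the median of all genes to -0.07. Snord32a, near 0, turned negative without a count filter (-0.0066), by library size only (-0.0077), with TMM over snoRNA genes (-0.0648) and with the replicate block (-0.0052), and ran from -0.13 (without miR-181a/b-1-/- replicate 3) to 0.11 with a library left out. Snord35a turned negative with TMM over snoRNA genes (-0.0402) and ran from -0.14 (without miR-181a/b-1-/- replicate 3) to 0.15 with a library left out. The cause was not tested.

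Over all genes, 0 were lower and 0 higher past the threshold in edgeR. Without a filter these were 1 and 7, with a library left out 0 to 1 and 0 to 5 (5 higher without miR-181a/b-1-/- replicate 1, and 1 lower and 3 higher without replicate 3), and at an unadjusted p 37 and 35, a threshold added after seeing the data. No Snord gene outside Rpl13a had an adjusted p below 0.05 under the alternatives run, and 1, Snord73a, was among the 37 at an unadjusted p. Snord34 led per length in 3 libraries and by counts in 1.

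Same-numbered libraries of the genotypes had correlated deviations of 0.219, 0.0807 and 0.176 over 1391 genes, and every library correlated best with its own number. The labels do not call the numbers pairs, and the main tests did not take them as such. Within each number the ratios of Snord34 to Snord32a and to Snord35a were lower in the miR-181a/b-1-/- library. The normalized level of Snord34 was not lower there for number 3. No paired test of the ratios was run. With the replicate block, the log2 fold change was -0.24 for Snord34 and 0.02 for Snord35a, with 0 calls. Snord33 gave no value under any alternative. With 3 libraries per genotype, the interval of the fold of Snord32a still ran from 0.765 to 1.32.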

Other observations

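The level of Snord34 did not follow those of Snord32a and Snord35a across libraries, and the genes most like it were looked up after this was seen. Over the 6 libraries the highest Pearson correlations of log2 level with Snord34 were those of Mir342 (0.991) and Mir15b (0.978), both miRNA genes. The paper lists miR-342 and miR-15b among the miRNAs that its small RNA sequencing found moderately lower without miR-181a/b-1. Mir342 gave 1.33, 1.11 and 0.595 normalized counts per 1000 in WT and 0.470, 0.327 and 0.718 in miR-181a/b-1-/- libraries. Mir15b gave 0.259, 0.168 and 0.126 in WT and 0.0905, 0.0564 and 0.0985 in miR-181a/b-1-/- libraries. With Snord32a, the highest was Calr (0.986), and Snord87 gave 0.976. These are the extremes of 1391 genes over 6 points that share depth and normalization, and they are given as a description only.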
